A study of Rattus norvegicus with 2 samples.

Results

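The subunits of oxidative phosphorylation were followed here by the genome that encodes them and by the complex they belong to. Members were all entries of the feature table whose symbol starts with Mt-nd, Mt-co, Mt-cyb, Mt-atp, Nduf, Sdha to Sdhd, Uqcr, Cox4 to Cox8 or Atp5, without the Ndufaf assembly factors, and with at least 20 unique molecular identifiers (UMIs) over both libraries. Of 107 entries with such a symbol, among 32623 in the table, 99 reached 20 UMIs. They were 13 mitochondrially encoded subunits, 83 nuclear-encoded subunit entries and 3 Sdhaf assembly factors that the prefix also catches. The Sdhaf factors were left out of the sums below. Of the 8 entries under 20 UMIs, Ndufa1, Cox6c-ps1, Cox8c and Sdhaf1 were at 0 of 112552698 UMIs, which allows a level of up to 0.0267 CPM (UMIs of a gene per 1000000 UMIs). The other 4 were the second Ndufa10l1 entry and Cox7b2 with 1 UMI each, Cox8b with 2 and Atp5pb with 16. Just above the limit were Ndufs6 with 22 UMIs and Cox7a1 with 34. Ndufa1, Ndufs6 and Atp5pb encode subunits that respiring cells need, so their listed values are not read as levels. Cox6b1, Ndufa10l1, Ndufv3 and Uqcrb each had 2 entries under their symbol. These symbols, and others of the family with close copies elsewhere in the genome, have counts that are uncertain to that extent.

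The cells were microglia, the resident macrophages of the brain, taken from the hippocampus of male rat fetuses at gestational day 20 and isolated by flow cytometry. One library came from fetuses with prenatal exposure to the synthetic glucocorticoid dexamethasone, the other from control fetuses, with 7 males pooled in each. Strain, dose and the vehicle of the controls are not given in the sources used here. The libraries held 42611920 UMIs in 4328 barcodes (dexamethasone) and 69940778 UMIs in 8342 barcodes (control), and 5 barcodes occurred in both. With 1 pool per group there is no replicate, no test was made, and the exposure cannot be told apart from anything else that differed between the libraries. Where a pair of values is given as the first against the second, the dexamethasone library comes first unless said otherwise. All intervals below are at the 95% level and cover counting error only. Cells were assigned by marker gates that use no subunit gene, which gave 2887 and 5717 microglia-like cells, 326 and 613 border-associated-macrophage-like cells, 52 and 38 neutrophil-like, 90 and 322 neuron-like and 98 and 127 erythroid-like cells in the dexamethasone and control library. Tmem119, Sall1 and P2ry12, all gate markers, led the microglia-like cells by fold over the other cells. The gate had no sharp edge, since 517 and 711 cells carried 0.0375% to 0.0625% of their UMIs in microglia markers, around the threshold of 0.05%.

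Oxidative phosphorylation is carried out in the inner mitochondrial membrane. Complexes I and II feed electrons from NADH and succinate to ubiquinone, complex III passes them to cytochrome c, complex IV passes them to oxygen, and complex V, the ATP synthase, uses the proton gradient built by complexes I, III and IV. Complexes I, III, IV and V combine subunits encoded by mitochondrial DNA with subunits encoded in the nucleus, whereas complex II is entirely nuclear-encoded. Mitochondrial DNA is transcribed as long precursors that are cut into the individual messengers. Its genes on the same strand thus share their transcription, while the nuclear genes each have a promoter of their own.

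In microglia-like cells the subunits of the mitochondrial genome were lower in the dexamethasone library, and those of the nuclear genome lay at nearly the same level. The 13 mitochondrially encoded subunits made up 3.15% of dexamethasone UMIs and 6.03% of control UMIs. Their log2 ratio, dexamethasone over control, was -0.94 (-0.94 to -0.93). Nuclear-encoded subunits made up 2.60% and 2.54%, a log2 ratio of 0.036 (0.032 to 0.040). The cell filter, which removes cells with over 20% of UMIs from mitochondrially encoded genes, acts on these members themselves, and the first ratio was -0.94 without it too. The small nuclear ratio was -0.0071 when levels were taken over the UMIs of all genes but the mitochondrially encoded ones, so its sign depends on the denominator.

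Taken gene by gene, the members of the 2 genomes separated. A gene was counted as past the fold at a log2 ratio of 0.5 or more in either direction. Of the 13 mitochondrially encoded genes 11 were past it on the lower side and 0 on the higher side, where 6.47% of the 12406 genes measured in these cells were past it lower and 6.92% higher. Of 81 nuclear entries measured in these cells 5 were past it higher and 1 lower. Their median log2 ratio was 0.0058, beside 0.0015 over all genes. With genes limited to those of at least 20 CPM in a library, 3 of 75 nuclear entries were past the fold higher and 0 lower, against 1.94% and 1.42% of 5419 such genes. In that set 63 of 75 nuclear entries (84.0%) had a ratio within 0.25 of 0, beside 82.3% of all such genes. The counting interval lay above 0 for 31 of the 75, below 0 for 23 and held 0 for 21. The same count was not made over all such genes. These intervals do not cover variation between cells or libraries.

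**Figure D1:**
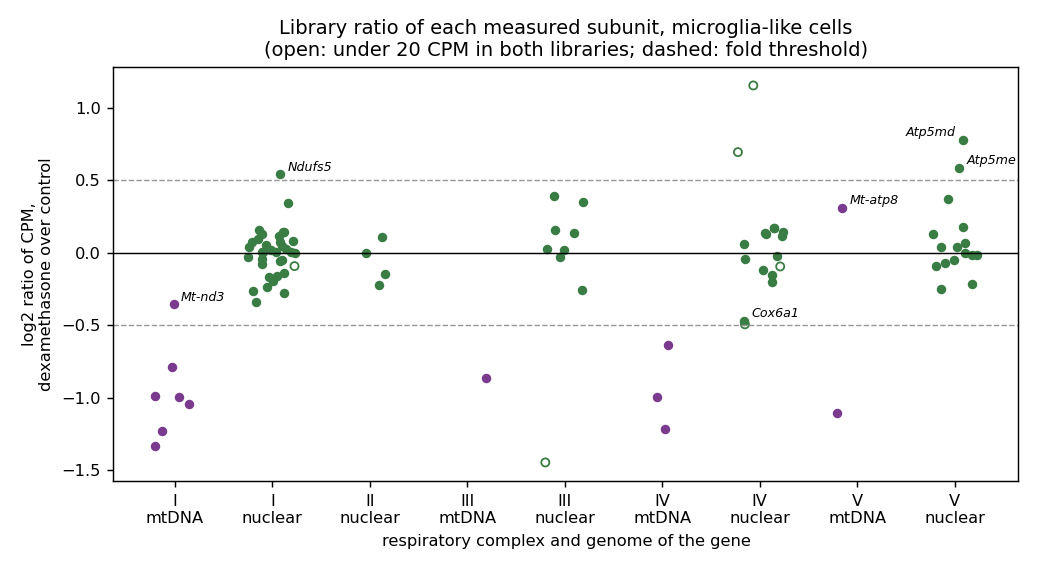
Log2 ratio of CPM, dexamethasone over control, for each subunit measured in microglia-like cells, by complex and genome of origin (points are genes, spread sideways for legibility; open points are under 20 CPM in both libraries; dashed lines are the fold threshold). The mitochondrially encoded genes lie below the lower line except Mt-nd3 and Mt-atp8, while the nuclear genes gather around 0.

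Complex I, the NADH dehydrogenase, takes 7 subunits from mitochondrial DNA, which form the core of its proton-pumping membrane arm. Summed, these took 0.663% of dexamethasone and 1.37% of control UMIs, a log2 ratio of -1.05 (-1.06 to -1.04). Mt-nd1 stood at 2187 against 5134 CPM (log2 ratio -1.23). Mt-nd4l had the lowest ratio of the mitochondrially encoded genes, at 130.2 against 329.0 CPM (log2 ratio -1.34, -1.39 to -1.29). Mt-nd4l and Mt-nd4 overlap in the genome, so their UMIs are hard to divide between them. Mt-nd4 stood at 2146 against 4276 CPM, and Mt-nd2 at 1543 against 3057 CPM. Mt-nd5 had a log2 ratio of -0.79 and Mt-nd6, the only one of these genes on the other strand, one of -1.04. How the counting treated strand is not given in the sources used here. Mt-nd3 alone stayed within the fold, at 345.9 against 442.4 CPM (log2 ratio -0.35, -0.39 to -0.32).

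The 35 nuclear entries of complex I measured in microglia-like cells included core subunits, which carry the flavin, the iron-sulfur clusters and the quinone site, and the accessory subunits around them. Summed over complex I, the nuclear entries stood at 0.691% against 0.688% of UMIs, a log2 ratio of 0.0059 with an interval that holds 0. Among the core subunits, Ndufv1, which binds NADH, stood at 56.3 against 67.6 CPM (log2 ratio -0.26), and Ndufs1, the largest iron-sulfur subunit, at 23.0 against 22.2 CPM. Accessory entries went both ways, 17 of 28 above 0 and 11 below. Those with the most UMIs were Ndufa13 at 635.8 against 595.4 CPM, Ndufb8 at 456.0 against 480.2 CPM and Ndufb9 at 414.0 against 473.8 CPM. Ndufs5, an accessory subunit on the intermembrane-space side, was the only nuclear member of complex I past the fold, at 212.3 against 145.8 CPM (log2 ratio 0.54, 0.49 to 0.59). The other large ratios were those of Ndufb10, at 151.5 against 191.8 CPM (-0.34), and of the Ndufv3 entry with most UMIs, at 112.2 against 88.5 CPM (0.34).

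Complex II, succinate dehydrogenase, also works in the tricarboxylic acid cycle, and none of its 4 subunits was past the fold. Together they stood at 0.0526% against 0.0560% of UMIs, a log2 ratio of -0.091 (-0.12 to -0.063). Sdha, the flavoprotein that oxidises succinate, stood at 70.3 against 70.5 CPM, and its interval held 0. Sdhb, the iron-sulfur subunit, stood at 241.7 against 267.5 CPM (log2 ratio -0.15). The membrane anchors differed in sign, with Sdhc at 98.1 against 114.5 CPM (-0.22) and Sdhd at 115.8 against 107.5 CPM (0.11). Among the assembly factors caught by the prefix, Sdhaf2, which helps to attach the flavin, had a log2 ratio of -0.020, and Sdhaf3 and Sdhaf4 stood at 1.69 against 1.20 and 16.9 against 13.5 CPM.

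Complex III, the cytochrome bc1 complex, has a single mitochondrially encoded subunit, Mt-cyb, which holds its quinone sites. Mt-cyb stood at 4526 against 8232 CPM (log2 ratio -0.86, -0.87 to -0.85). The nuclear entries of this complex together were on the other side of 0, at 0.278% against 0.249% of UMIs, a log2 ratio of 0.16 (0.15 to 0.17), the largest ratio of the nuclear sums of the 5 complexes. The small accessory subunits Uqcr10 and Uqcrq had the highest ratios among them. Uqcr10 stood at 716.2 against 544.9 CPM (log2 ratio 0.39, 0.37 to 0.42). Uqcrq stood at 366.5 against 287.7 CPM (log2 ratio 0.35). Uqcr11 had a log2 ratio of 0.16 and Uqcrh, the hinge subunit, one of 0.019 with an interval that holds 0. The large core protein Uqcrc1 was on the lower side, at 120.9 against 144.3 CPM (-0.26), its partner Uqcrc2 stood at 124.1 against 121.9 CPM, and the Rieske iron-sulfur protein Uqcrfs1 at 204.6 against 208.8 CPM. The 2 entries named Uqcrb disagreed, since ENSRNOG00000024967 stood at 350.2 against 318.0 CPM and ENSRNOG00000032204 at 5.81 against 15.8 CPM (log2 ratio -1.45). The second was the only nuclear entry past the fold on the lower side, and its UMIs cannot be assigned with certainty because the 2 entries carry 1 symbol.

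Complex IV, cytochrome c oxidase, has 3 mitochondrially encoded subunits that form its catalytic core. Together they stood at 1.70% against 3.13% of UMIs, a log2 ratio of -0.88 (-0.89 to -0.88). Mt-co1, which carries the site where oxygen is reduced, stood at 4255 against 8479 CPM (log2 ratio -0.99). Mt-co2, which receives electrons from cytochrome c, stood at 8812 against 13691 CPM (log2 ratio -0.64, -0.64 to -0.63). Mt-co3 stood at 3937 against 9170 CPM (log2 ratio -1.22). The 3 genes thus differed among themselves by more than their counting intervals. Mt-co2 made up 28.0% of mitochondrially encoded UMIs under dexamethasone and 22.7% under control conditions, and Mt-co3 12.5% and 15.2%.

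The nuclear entries of complex IV together stood at 0.833% against 0.829% of UMIs, a log2 ratio of 0.0056 with an interval that holds 0. Cox4i1, the nuclear subunit of complex IV with the most UMIs, stood at 1179 against 1310 CPM (log2 ratio -0.15). Cox8a stood at 1042 against 927.5 CPM (0.17), Cox6c at 1011 against 932.6 CPM (0.12) and Cox7c at 676.1 against 601.5 CPM (0.17). Ndufa4, named as a complex I protein and found to belong to complex IV, stood at 949.5 against 909.7 CPM (0.062). Cox6a1 had the lowest ratio of the nuclear entries with at least 20 CPM, at 553.6 against 766.3 CPM (log2 ratio -0.47, -0.50 to -0.44), just inside the fold. The second Cox6b1 entry stood at 46.7 against 53.8 CPM.

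Complex IV subunits often come as a common isoform and a tissue-restricted one, and microglia-like cells carried few UMIs of the latter. Cox4i2, the isoform known from lung and from low oxygen, stood at 1.28 against 1.37 CPM. The muscle and heart isoforms Cox6a2 and Cox7a1 stood at 1.25 against 0.772 CPM and at 0.473 against 0.212 CPM. Their log2 ratios of 0.69 and 1.16 were past the fold, but they rest on 37 and 40 UMIs for Cox6a2 and on 14 and 11 for Cox7a1, and the interval of Cox7a1 (-0.090 to 2.44) holds 0. Cox6b2, the testis isoform, stood at 12.4 against 17.5 CPM (log2 ratio -0.49, -0.67 to -0.32), while the main Cox6b1 entry stood at 629.9 against 574.4 CPM. Cox8b, the muscle isoform beside Cox8a, had 0 and 2 UMIs, and Ndufa4l2 had 2 and 3.

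Complex V, the ATP synthase, has 2 mitochondrially encoded subunits, and they went opposite ways. Mt-atp6, which with the c ring forms the proton path, stood at 3197 against 6870 CPM (log2 ratio -1.10, -1.11 to -1.09). Mt-atp8 stood at 169.7 against 137.0 CPM (log2 ratio 0.31, 0.26 to 0.36), and was the only mitochondrially encoded gene on the higher side. The reading frames of Mt-atp8 and Mt-atp6 overlap and share a messenger, so the division of UMIs between them is uncertain. Summed, the pair stood at 0.337% against 0.701% of UMIs, a log2 ratio of -1.06.

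**Figure D2:**
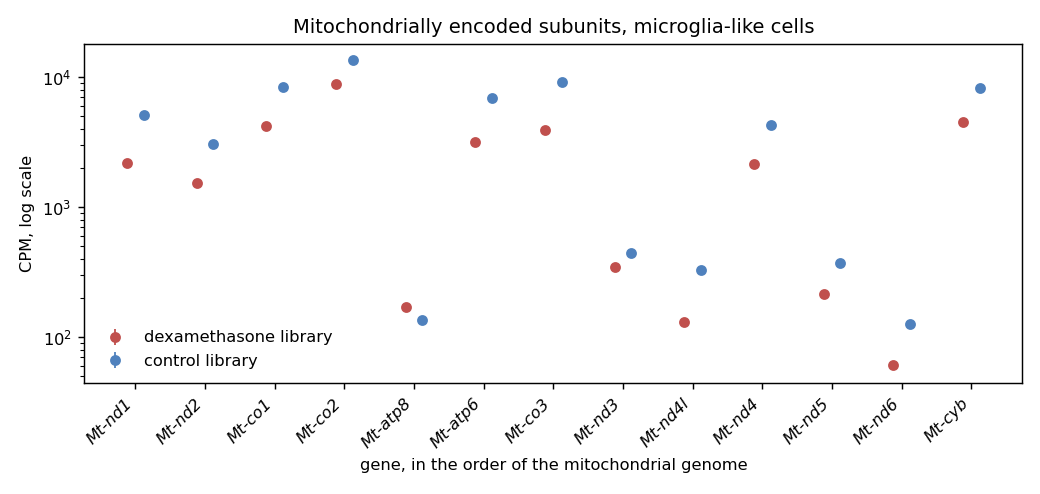
Level in CPM (log axis) of the 13 mitochondrially encoded subunits in microglia-like cells, in the order of the mitochondrial genome, one point per library with its Poisson interval, which is mostly smaller than the point. The dexamethasone point lies below the control point for 12 genes and above it for Mt-atp8, and the gap is small at Mt-nd3.

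The nuclear entries of complex V stood at 0.747% against 0.714% of UMIs, a log2 ratio of 0.065 (0.058 to 0.073), and its parts differed. In the catalytic head and central stalk 2 of 5 genes were above 0, the epsilon subunit Atp5f1e furthest, at 1121 against 865.6 CPM (log2 ratio 0.37, 0.35 to 0.39). The alpha subunit Atp5f1a stood at 282.4 against 327.9 CPM (-0.22) and the catalytic beta subunit Atp5f1b at 441.1 against 462.7 CPM (-0.069). The c subunit, encoded by 3 genes that yield the same mature protein, had log2 ratios of 0.039 for Atp5mc1, -0.0014 for Atp5mc2 and 0.13 for Atp5mc3. Of the peripheral stalk, all 3 measured genes were below 0, Atp5po furthest at -0.25. The inhibitor Atp5if1, which blocks ATP hydrolysis by the enzyme, stood at 521.0 against 527.4 CPM, and its interval held 0.

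The small membrane subunits, which help to hold the ATP synthase in dimers, were all on the higher side, at 1370 against 1163 CPM together, a log2 ratio of 0.24 (0.22 to 0.25). Atp5md, also named Atp5mk, stood at 89.5 against 52.1 CPM (log2 ratio 0.78, 0.70 to 0.86). Atp5me stood at 241.3 against 160.8 CPM (log2 ratio 0.59, 0.54 to 0.63). Atp5mg had a ratio of 0.18 and Atp5mf one of 0.069. Atp5md, Atp5me and Ndufs5 were thus the 3 nuclear subunits with at least 20 CPM past the fold. Just inside it lay Cox6a1 at -0.47, Uqcr10 at 0.39 and Atp5f1e at 0.37.

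These 3 genes were picked by their ratio in the sum of all microglia-like cells. The subsets below are parts of that sum, so they show how the ratios ranged and are no separate evidence. Over 4 bins of cell depth, from under 5000 to at least 20000 UMIs, the log2 ratio ran from 0.47 to 0.83 for Atp5md, from 0.41 to 1.03 for Atp5me and from 0.30 to 0.76 for Ndufs5, and in cells of at least 20000 UMIs all 3 were inside the fold. In cells with cycling markers the ratios were 0.76, 0.58 and 0.48, and in cells with axon-tract markers 0.68, 0.64 and 0.58. Cox6a1 ran from -0.63 to -0.46 over the same depth bins, past the fold in 3 of the 4. Uqcr10 ran from 0.083 in cells of at least 20000 UMIs to 0.53 in those under 5000. Uqcrq ran from 0.20 to 0.43 and Atp5f1e from 0.24 to 0.54, also highest in the shallowest cells. Cox4i1 ran from -0.26 in the deepest cells to -0.0023 in the shallowest, and Ndufb10 from -0.42 to -0.35.

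The stretch of 250 bases before the RefSeq start site is shown for the 3 genes because they are the nuclear members with at least 20 CPM furthest from equal levels. Each is written 5′ to 3′ on the strand of the gene, in the GRCr8 build, with matches in capitals. Atp5md lies on the minus strand at chr1:255922048-255922297, Atp5me on the plus strand at chr14:1464610-1464859 and Ndufs5 on the minus strand at chr5:141264403-141264652.
Atp5md: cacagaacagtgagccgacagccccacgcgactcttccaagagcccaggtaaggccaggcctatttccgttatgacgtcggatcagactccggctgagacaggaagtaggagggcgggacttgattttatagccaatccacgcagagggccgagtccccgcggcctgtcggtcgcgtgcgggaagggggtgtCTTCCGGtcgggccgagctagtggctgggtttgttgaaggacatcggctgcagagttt
Atp5me: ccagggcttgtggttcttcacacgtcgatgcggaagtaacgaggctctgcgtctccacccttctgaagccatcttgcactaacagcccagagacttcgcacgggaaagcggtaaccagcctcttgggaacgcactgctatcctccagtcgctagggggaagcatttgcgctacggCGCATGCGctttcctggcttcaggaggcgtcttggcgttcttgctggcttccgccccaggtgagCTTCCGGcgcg
Ndufs5: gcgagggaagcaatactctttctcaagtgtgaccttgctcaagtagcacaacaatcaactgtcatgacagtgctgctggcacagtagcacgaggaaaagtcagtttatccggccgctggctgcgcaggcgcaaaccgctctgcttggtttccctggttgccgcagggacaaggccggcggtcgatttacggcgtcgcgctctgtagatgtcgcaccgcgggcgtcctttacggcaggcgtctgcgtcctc

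Capitals mark the letters GCATGCG, from the core of sites bound by nuclear respiratory factor 1, and CCGGAAG, the core of sites bound by ETS factors such as GABP (nuclear respiratory factor 2), each searched on both strands. These factors are known as activators of many nuclear genes of respiration. The Atp5md stretch held 1 ETS match. The Atp5me stretch held 1 ETS match and 2 overlapping matches of the other motif, 1 on each strand. The Ndufs5 stretch held neither of these. Of 80 measured nuclear subunit symbols, 70 had a stretch in the RefSeq table. GCATGCG occurred in 10 of the 70 (14.3%) and in 2.93% of all 33469 stretches of that length, and CCGGAAG in 18 (25.7%) and 7.27%. Over stretches of protein-coding genes alone the shares were 3.61% and 9.01%. The 2 motifs and the stretch were chosen after other searches had been seen. A longer form of the nuclear respiratory factor 1 site, which the Ndufs5 stretch does hold once, occurred in 11 of the 70 and in 3.75% of all stretches. With the 50 bases after the start included, it occurred in 14 of the 70 and in 4.25% of all, and CCGGAAG in 19 and 8.75%. A site of the factor YY1 occurred in 0 of the 70 without those bases and in 8 with them, against 0.230% and 0.675% of all. A match describes the sequence and does not show a bound site.

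Within single microglia-like cells the mitochondrial share moved as a whole distribution. The median cell gave 3.04% of its UMIs to mitochondrially encoded subunits under dexamethasone and 6.02% in control cells, with 5th to 95th percentiles of 1.11 to 5.48% and 3.45 to 9.24%. Of dexamethasone cells, 63.2% lay under the 5th percentile of control cells and 96.7% under the control median. The nuclear share of the median cell was 2.43% and 2.32%, and these distributions overlapped almost fully. Across the cells of a library the 2 shares went weakly opposite ways, with Pearson's r of -0.26 over 2887 dexamethasone cells and -0.20 over 5717 control cells. They are parts of the same total, which by itself pulls such an r below 0. From the lowest to the highest quartile of cells by mitochondrial share, the nuclear share went from 2.73 to 2.40% under dexamethasone and from 2.67 to 2.32% in control cells.

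**Figure D3:**
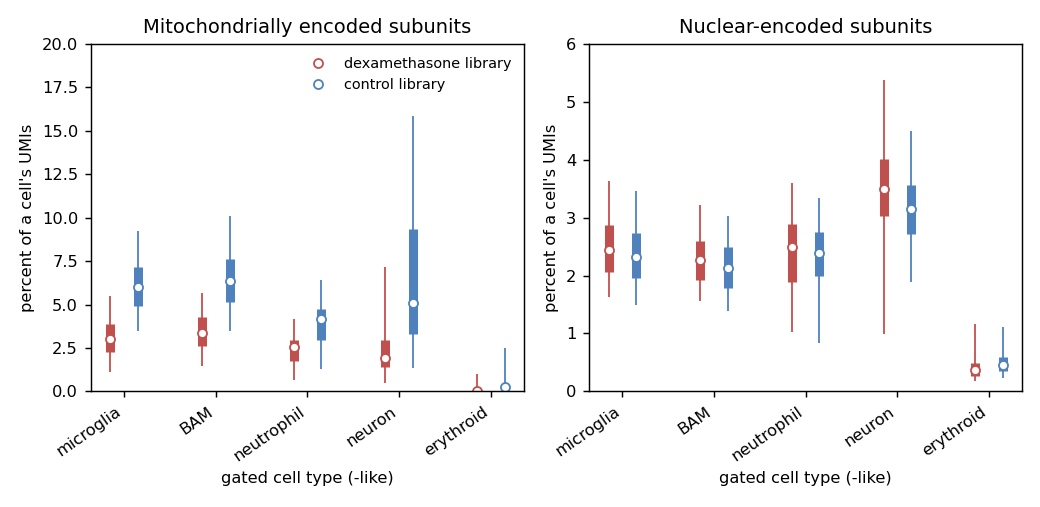
Percent of each cell's UMIs from mitochondrially encoded (left) and nuclear-encoded (right) subunits, by gated type (BAM, border-associated macrophage) and library, as the median (open circle), the middle 50% of cells (thick line) and the 5th to 95th percentile (thin line). In microglia-like cells the mitochondrial medians are 3.04% and 6.02%, and the nuclear ones 2.43% and 2.32%.

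Cell depth differed between the libraries, with medians of 9241 and 8009 UMIs in microglia-like cells, and it moved with the nuclear share more than with the mitochondrial one. In cells under 5000 UMIs the nuclear share was 2.12% against 1.89%, a log2 ratio of 0.17, and in cells of 20000 UMIs or more it was 2.88% against 3.14%, a log2 ratio of -0.12. The nuclear sum therefore had no single direction over depth. The mitochondrial log2 ratio was -0.93, -0.998, -0.90 and -0.78 from the shallowest bin to the deepest. Cells with and without cycling markers gave mitochondrial ratios of -0.89 and -0.95, and axon-tract cells -0.95. In the latter the nuclear subunits were higher in each library than in the remaining non-cycling cells, at 3.15% against 2.50% under dexamethasone and 3.14% against 2.41% in control cells. These sets of cells were not matched for depth, whose part was not tested.

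The mitochondrial genes were lower in the dexamethasone library in all 5 gated types compared, not in microglia-like cells alone. Summed, they stood at 3.48% against 6.14% of UMIs in border-associated-macrophage-like cells, a log2 ratio of -0.82 (-0.83 to -0.81). Cells that also passed the microglia gate were kept in that class. Microglia markers summed to 4016 against 4135 CPM there, beside 4349 against 4598 CPM in microglia-like cells. The make-up of the class also differed between the libraries. Its own markers summed to 6722 against 10137 CPM, with 10 of 10 lower in the dexamethasone library and none at 0. Of the Leiden clusters given the same name, one held 459 and 711 cells and the other 13 and 155. The part of this in the ratio was not tested. In neutrophil-like cells the mitochondrial genes stood at 2.22% against 3.82%, a log2 ratio of -0.78 (-0.82 to -0.75). That class held 52 and 38 cells. Its neutrophil or monocyte markers summed to 126517 against 68880 CPM, with 4 of 13 lower in the dexamethasone library. Their part in the ratio was not tested. In neuron-like cells the mitochondrial genes stood at 2.03% against 4.82%, a log2 ratio of -1.25 (-1.28 to -1.22). There 12 of 13 were past the fold on the lower side, beside 13.8% of the 7586 genes measured in these cells. Mt-co3 stood at 2156 against 6896 CPM. Neuron-like cells also differed in depth, with medians of 5333 and 2215.5 UMIs, whose part was not tested. Their ratio was -1.36 without the limit on mitochondrial share. Cells the gates left out gave -0.97.

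Erythroid-like cells gave the lowest mitochondrial ratio and the least firm one. They stood at 0.208% against 0.605% of UMIs, a log2 ratio of -1.54 (-1.59 to -1.49). With the globin genes of the erythroid marker list taken out of the total, they stood at 0.499% against 1.68%, a log2 ratio of -1.75. LOC100134871, at 270010 CPM in these cells and 470.9 CPM in the others, was not on that list and stayed in the total. The median cell held 7 mitochondrially encoded UMIs under dexamethasone and 51 in control cells. Only 4 of 98 and 9 of 127 cells were needed to reach 50% of those UMIs. With at least 1000 genes per cell, which left 10 and 14 cells, the ratio was -0.66.

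Mt-atp8 did not share its place in all types. In border-associated-macrophage-like cells its level was 197.3 against 146.4 CPM (0.43), and it stood at 158.7 against 98.2 CPM in neutrophil-like cells (0.69). In neuron-like cells it stood at 68.4 against 95.1 CPM, the erythroid-like level was 10.6 against 12.3 CPM, and both intervals held 0. Whether these ratios differ between types was not tested. Mt-nd3 in border-associated-macrophage-like cells stood at 378.1 against 425.7 CPM (-0.17) and at 203.4 against 356.7 CPM in neuron-like cells (-0.81).

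**Figure D4:**
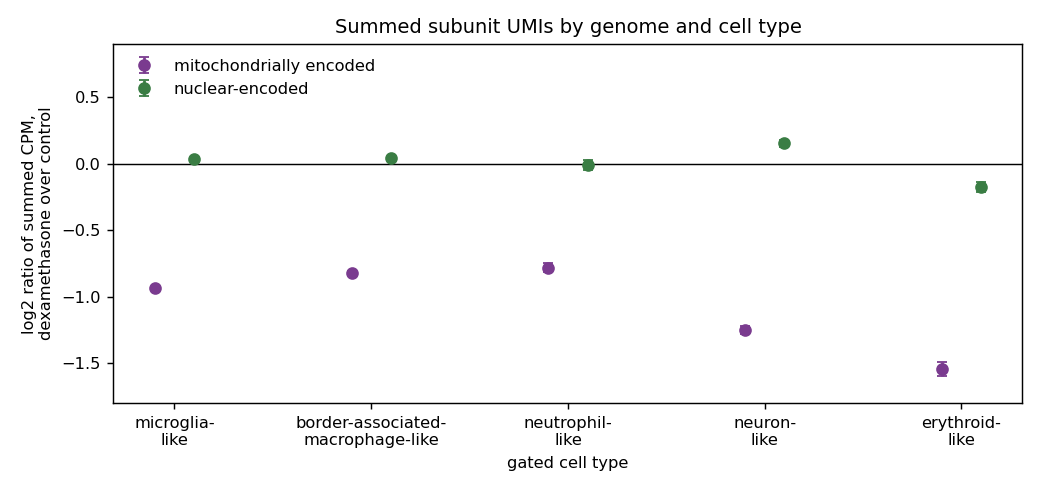
Log2 ratio of summed CPM, dexamethasone over control, for mitochondrially and nuclear-encoded subunits in the 5 gated types, with 95% counting intervals. The mitochondrial sums run from -0.78 in neutrophil-like to -1.54 in erythroid-like cells. The nuclear sums run from -0.18 in erythroid-like cells to 0.15 in neuron-like cells. With the globin genes of the erythroid marker list out of the total, the erythroid-like nuclear ratio is -0.39 (not plotted).

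The summed nuclear ratio lay nearer to 0 than the mitochondrial one in the other types too. The log2 ratio was 0.040 for border-associated-macrophage-like cells and -0.0071 for neutrophil-like ones. For neuron-like cells it was 0.15 and for erythroid-like cells -0.18. With the listed globin genes taken out of the total and LOC100134871 left in, the nuclear subunits of erythroid-like cells stood at 1.14% against 1.49%. That is a log2 ratio of -0.39 (-0.43 to -0.35). Neuron-like cells gave them the largest share, 3.46% against 3.11% of UMIs. Atp5md in border-associated-macrophage-like cells stood at 68.0 against 39.3 CPM (0.79), and it stood at 352.4 against 156.4 CPM in neuron-like cells (1.17). Atp5me had log2 ratios of 0.44 and 0.67 and Ndufs5 of 0.43 and 0.66 in those types. In neutrophil-like and erythroid-like cells the intervals of all 3 genes held 0, with Atp5md resting on 54 and 30 UMIs and on 18 and 28. Cox6a1 was on the lower side in all 5 types, from -0.47 in microglia-like to -0.21 in neuron-like cells, and so was Cox4i1, from -0.41 in erythroid-like to -0.15 in microglia-like cells. Atp5if1, whose product is needed in haem synthesis of red cells, stood at 698.7 against 874.0 CPM in erythroid-like cells, where all 5 head and stalk genes of the ATP synthase together stood at 239.8 against 297.0 CPM. In microglia-like cells the order was the reverse, with 521.0 against 527.4 CPM for Atp5if1 and 2655 against 2479 CPM for the head and stalk genes. Those are UMI levels that are not scaled to gene length.

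The balance of the genomes within each complex was therefore lower in the dexamethasone library. In microglia-like cells 1.21 mitochondrially encoded UMIs were counted per nuclear-encoded subunit UMI, against 2.38 in the control. The ratio was 0.959 against 1.996 in complex I and 1.63 against 3.31 in complex III. It was 2.04 against 3.78 in complex IV and 0.451 against 0.982 in complex V. Complex IV had the highest ratio and complex V the lowest in microglia-like cells of both libraries. In neuron-like cells complex III had the highest, at 1.39 against 3.30.

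**Figure D5:**
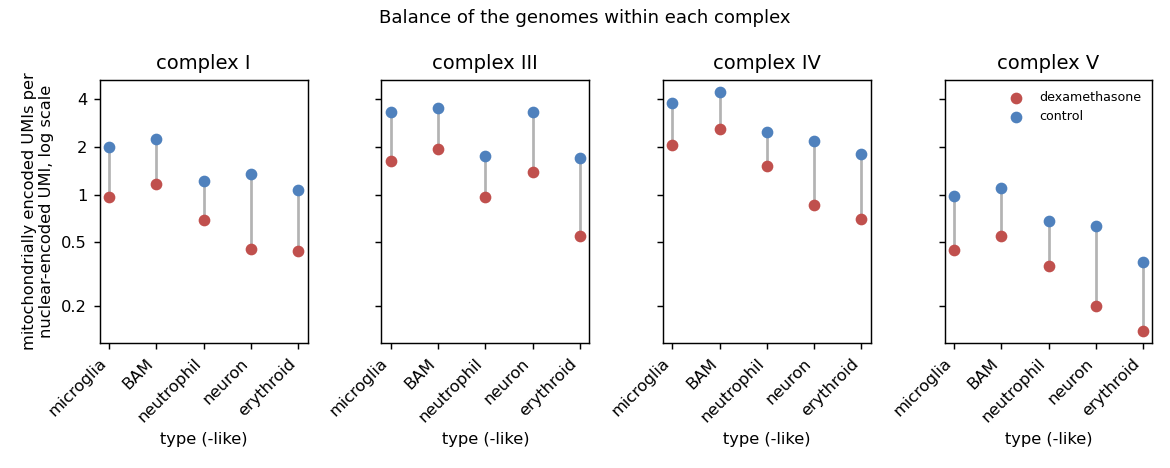
Mitochondrially encoded UMIs per nuclear-encoded subunit UMI (log axis) in complexes I, III, IV and V for each gated type (BAM, border-associated macrophage), with a line joining the libraries. The dexamethasone point is the lower of each pair, for example 2.04 against 3.78 in complex IV of microglia-like cells.

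Genes that build and supply the complexes lay near 0 like the nuclear subunits. Over all 12406 genes measured in microglia-like cells 6227 were above 0, with 859 past the fold higher and 803 lower. Past the fold were 1 assembly factor (higher), 1 mitochondrial ribosome gene higher and 1 lower, and 1 gene of mitochondrial DNA and RNA upkeep (higher). The biogenesis, tricarboxylic acid cycle and carrier lists had 0 in either direction. In microglia-like cells 26 of 40 assembly factors were above 0, with a median log2 ratio of 0.086, and Cox17, the copper chaperone of complex IV, stood at 211.1 against 161.9 CPM (0.38). Coa5, another assembly factor of that complex, stood at 67.3 against 52.9 CPM (0.35). Of 72 mitochondrial ribosome genes 30 were above 0, with a median of -0.033 and Mrpl17 at 237.9 against 240.2 CPM. Mrpl37 and Mrps16 had the largest ratios of that list with at least 20 CPM, -0.38 and -0.36. Genes of mitochondrial DNA and RNA upkeep had a median of 0.065, with 17 of 27 above 0. Among them Fastk, of a family that handles mitochondrial RNA, stood at 33.4 against 19.1 CPM (log2 ratio 0.80, 0.67 to 0.93), and Slirp, which stabilises mitochondrial messengers, at 33.8 against 41.1 CPM (-0.28). Hsd17b10, a part of mitochondrial RNase P, stood at 91.0 against 105.5 CPM (-0.21). Regulators of mitochondrial biogenesis had a median of 0.10 over 8 genes, with Esrra, a nuclear receptor that activates respiratory genes, at 32.2 against 22.9 CPM (0.49) and Yy1 at 115.3 against 139.2 CPM (-0.27). In the tricarboxylic acid cycle 8 of 15 genes were above 0, with Mdh2, mitochondrial malate dehydrogenase, at a log2 ratio of -0.32 and Idh3g, of isocitrate dehydrogenase, at 41.3 against 49.2 CPM (-0.25). Among mobile carriers and exchangers 7 of 11 were above 0, with the ADP/ATP carrier Slc25a5 at 557.2 against 522.4 CPM and the outer membrane channel Vdac1 at 133.9 against 112.0 CPM (0.26). Etfa, of the electron transfer flavoprotein, stood at 51.7 against 59.2 CPM (-0.20).

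Other RNA moved between the libraries beside these members. In microglia-like cells cytosolic ribosomal protein genes stood at 15.02% against 13.2% of UMIs. Globin genes of the erythroid marker list, LOC100134871 not among them, stood at 0.0196% against 0.0378%. Of 14 neuron markers 14 were lower in the dexamethasone library, at 5.81 against 27.4 CPM together, none at 0. In neuron-like cells the neuron markers stood at 10996 against 11522 CPM. The part of this RNA in the mitochondrial result was not tested.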

How the data were processed

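The deposited values were raw counts of UMIs per gene and barcode, per the file headers, and Cell Ranger 7.0.0 and the Rnor_6.0 build are named in the submitters' processing notes. Cells with under 200 genes, or with over 20% mitochondrial UMIs, were removed, which left 4199 of 4328 (dexamethasone) and 8044 of 8342 (control). Gates used marker UMIs, with thresholds set after marker levels were seen. No doublet caller was run, and cells with markers of 2 classes (16 and 38) were set aside. Counts were summed per class and library and scaled to CPM. Ratio intervals are exact conditional binomial, those of CPM Poisson and those of shares Clopper-Pearson. A ratio needed 20 UMIs in all, and 0 was replaced by a floor of 3 counts.

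All mitochondrially encoded members are named, and from each complex the 3 nuclear members with the most UMIs, the 3 largest ratios and those past the fold with at least 20 CPM, besides isoform pairs. From each neighbouring list the member with the most UMIs and the 2 largest ratios with at least 20 CPM are given. The members and lists were chosen with earlier results of these data known. Promoter stretches came from RefSeq (GRCr8), matched by symbol or synonym. Calculations used Python 3.11.15, numpy 2.4.6, pandas 2.3.3, scipy 1.17.1 and scanpy 1.11.5 (Leiden clusters at resolution 0.5, as an alternative to the gates). The ratio calculation was run on simulated Poisson counts with known ratios. These had no variation between cells or libraries, so the run checks the arithmetic only. Alternatives varied the cell filter, the classes, the denominator, the weighting of cells, the fold, the UMI minimum and the depth.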

Additional observations from a re-analysis of the deposited data

Results flagged for a closer look

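Some nuclear subunits had a ratio in microglia-like cells opposite to that in another gated type, with counting intervals on opposite sides of 0. They are given here where they had at least 20 CPM in a library of both types, and Sdhd, under that limit, is added. Cox7b, a small subunit of complex IV, had a log2 ratio of -0.046 in microglia-like, 0.19 in border-associated-macrophage-like and 0.28 in neuron-like cells. Ndufa13, an accessory subunit of complex I, had 0.095 in microglia-like and -0.42 in neutrophil-like cells. Ndufa12, another accessory subunit, had -0.16 in microglia-like and 0.39 in neuron-like cells. Atp5pf, of the peripheral stalk of the ATP synthase, had -0.052 in microglia-like and 0.27 in neuron-like cells. Ndufa4 had 0.062 and Cox6c 0.12 in microglia-like cells, against -0.42 and -0.38 in erythroid-like cells. Sdhd, a membrane anchor of complex II, had 0.11 in microglia-like cells and -0.82 (-1.65 to -0.047) in erythroid-like cells, where it rests on 20 and 49 UMIs. The nuclear entries as a set also differed in sign between types. Above 0 were 44 of 81 in microglia-like, 44 of 77 in border-associated-macrophage-like and 34 of 74 in neutrophil-like cells. In neuron-like cells 52 of 77 were above 0, and in erythroid-like cells 25 of 73. With 1 library per group the differences between types were not tested.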

How the results depend on the processing

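The summed mitochondrial ratio kept its direction in each of the 5 types under every alternative run. In microglia-like cells it was -0.94 without a limit on the mitochondrial share, -0.92 with at most 10%, -0.95 by the mean of per-cell shares, -0.97 relative to nuclear-encoded subunits, -0.95 without cells with cycling markers and -0.97 with each cell thinned to 4500 UMIs (136 and 562 shallower cells left out). For border-associated-macrophage-like cells the values were -0.78 with at most 10%, -0.87 with Leiden clusters, -0.91 by per-cell shares and -0.86 relative to nuclear subunits. In neutrophil-like cells it was -0.71 with Leiden clusters and -0.66 by per-cell shares. In neuron-like cells the 6 alternatives gave -1.36 (no limit), -1.10 (at most 10%), -1.20 (at least 1000 genes), -1.29 (Leiden clusters), -1.14 (per-cell shares) and -1.40 (relative to nuclear subunits). In erythroid-like cells it was -0.66 with at least 1000 genes, -1.30 with Leiden clusters, -1.64 by per-cell shares and -1.37 relative to nuclear subunits.

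The nuclear sum in microglia-like cells turned to -0.0071 over UMIs without mitochondrially encoded genes. It was 0.016 without mitochondrially encoded, ribosomal protein and listed globin genes. It was 0.042 with Leiden clusters, 0.071 by per-cell shares, 0.044 without cycling cells and 0.050 after thinning. Of nuclear entries past the fold, 9 were higher at a log2 ratio of 0.3 and 3 at 100 UMIs or more, instead of 5. On the lower side 4 were past 0.3 and 3 without mitochondrially encoded genes in the total, instead of 1. There were 2 without those, ribosomal protein and listed globin genes, and 2 after thinning. Apart from the alternatives' own construction the causes were not tested. No paired analysis was possible because each group has 1 library. Depth limits the neutrophil-like and erythroid-like values and isoforms with few UMIs.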
